A study of Homo sapiens with 4 samples.

Results

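The genes described are 9 enzymes of glutamine, asparagine, proline and arginine metabolism, GLUL, GLUD1, ASNS, GPT2, GOT1, GOT2, PYCR1, ALDH18A1 and ASS1. They were chosen by gene symbol, and all 9 have a row among the 12912 genes of the deposited count table, each with a single Ensembl identifier. The samples were RNA-seq libraries of 786-O, a clear cell renal carcinoma cell line without functional VHL, with 2 libraries each of the VHL-null subline 786-O-Ctrl and of the subline 786-O-VHL, in which a retroviral vector restored expression of HA-tagged wild-type VHL. Both sublines also carried the triple reporter of GFP, luciferase and thymidine kinase, and both were grown in RPMI1640 with fetal bovine serum, penicillin and streptomycin. Each group is a single derived subline, the sources used here do not say whether 786-O-Ctrl carries an empty vector, and they do not say whether the libraries of a group came from separate cultures. The p-values therefore measure the spread between these libraries, which may be technical.

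Glutamine is the main nitrogen carrier of cultured cells. Once glutamine has given glutamate, glutamate dehydrogenase and the aminotransferases move the glutamate carbon into and out of the citric acid cycle. They release or transfer its nitrogen, and glutamate is also the start of proline synthesis. Aspartate, made by the aspartate aminotransferases, is the acceptor of the glutamine amide in asparagine synthesis and is joined to citrulline in the synthesis of arginine. Renal carcinoma cells that lack VHL are known for their use of glutamine carbon, and clear cell renal carcinomas for low levels of urea cycle enzymes.

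Transcript counts of these genes moved in both directions in 786-O-VHL. ASS1 rose 5.93-fold, ASNS 2.10-fold (a call lost without 786-O-VHL replicate 2), GOT1 1.67-fold, GPT2 1.61-fold and PYCR1 1.34-fold. ALDH18A1 was 1.68-fold, GOT2 1.55-fold and GLUD1 1.18-fold lower than in 786-O-Ctrl. GLUL had 6 counts in all 4 libraries together and could not be tested. Of the 8 genes tested, 5 were thus higher and 3 were lower at an edgeR FDR under 0.05. That FDR was passed by 64.5% of all 12335 genes tested, 32.6% higher and 31.9% lower, so the share of calls is of interest here less than their sizes and directions. With a fold change over 2 in addition, ASS1 and ASNS remained of the members, where 10% of all genes were called higher and 7.52% lower. Only ASS1 among the 8 passed the study's threshold of a fold change over 4 with an FDR under 0.01, as 4.46% of all genes did in either direction. The median log2 fold change was 0.56 over the 8 genes and 0.02 over all genes tested, and the median absolute log2 fold change was 0.72 against 0.43. The members were chosen with earlier results of these data known, so these medians describe the list and do not test it. The libraries of the groups did not overlap for any of the 8, which was also so for 80% of all genes tested.

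**Figure D1:**
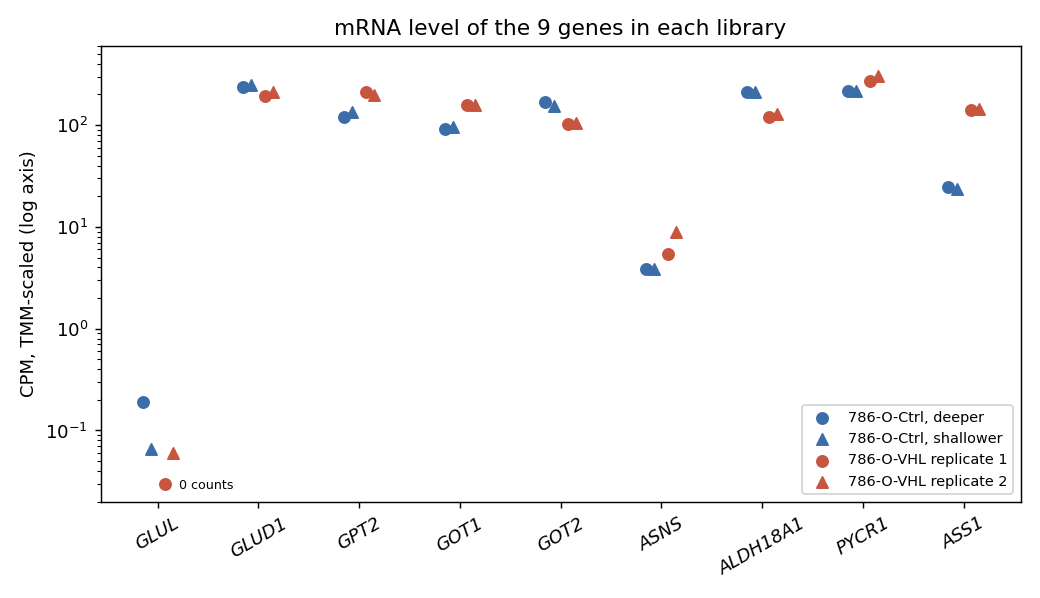
Level of each of the 9 genes in each library, in CPM scaled by TMM, on a log axis. Blue symbols are the 2 libraries of 786-O-Ctrl and red symbols the 2 of 786-O-VHL, and the GLUL point at 0 counts is drawn at the lower edge. The ASS1 symbols are separated most, from between 23.3 and 24.6 CPM to between 140 and 144 CPM, and ASNS and GLUL lie far below the other genes.

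Promoter sequences are shown first for 5 genes that moved, because they let the reader see which short factor sites lie before enzymes that moved in opposite directions. They are RefSeq sequences of GRCh38.p14, a later build than the hg19 of the counts, and run from 250 bases before to 50 bases after the start of transcription, 5′ to 3′ on the strand of the gene. Promoters were found for 7 of the 9 members. Capitals mark every match, on either strand, to TGATGNAA, the response element that C/EBP and ATF factors such as ATF4 bind, and to ACGTG or GCGTG, the core of the hypoxia response element bound by HIF. ACGTG also lies within the E-box CACGTG, which MYC and related factors bind. The windows are chr9:130444711-130445010 (plus strand, the second of 2 ASS1 starts), chr7:97872359-97872658 (minus strand, the second of 2 ASNS starts), chr10:99430575-99430874 (minus strand, GOT1), chr16:58734267-58734566 (minus strand, GOT2) and chr10:95656662-95656961 (minus strand, ALDH18A1).
ASS1: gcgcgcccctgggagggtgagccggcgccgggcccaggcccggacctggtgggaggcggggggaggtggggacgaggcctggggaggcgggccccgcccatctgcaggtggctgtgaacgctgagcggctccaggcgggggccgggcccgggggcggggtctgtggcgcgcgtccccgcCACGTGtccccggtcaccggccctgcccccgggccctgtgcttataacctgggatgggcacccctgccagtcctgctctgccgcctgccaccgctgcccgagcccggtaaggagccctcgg
ASNS: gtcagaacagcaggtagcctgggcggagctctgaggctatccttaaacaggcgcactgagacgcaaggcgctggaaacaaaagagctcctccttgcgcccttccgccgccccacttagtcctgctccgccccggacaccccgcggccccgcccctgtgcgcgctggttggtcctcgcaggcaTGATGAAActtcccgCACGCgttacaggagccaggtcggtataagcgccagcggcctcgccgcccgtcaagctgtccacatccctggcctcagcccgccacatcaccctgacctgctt
GOT1: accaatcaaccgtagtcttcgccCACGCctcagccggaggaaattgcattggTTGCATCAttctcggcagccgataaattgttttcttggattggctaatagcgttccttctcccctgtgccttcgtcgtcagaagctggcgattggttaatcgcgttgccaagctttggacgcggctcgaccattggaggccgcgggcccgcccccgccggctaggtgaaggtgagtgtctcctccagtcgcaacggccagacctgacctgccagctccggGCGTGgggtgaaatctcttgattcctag
GOT2: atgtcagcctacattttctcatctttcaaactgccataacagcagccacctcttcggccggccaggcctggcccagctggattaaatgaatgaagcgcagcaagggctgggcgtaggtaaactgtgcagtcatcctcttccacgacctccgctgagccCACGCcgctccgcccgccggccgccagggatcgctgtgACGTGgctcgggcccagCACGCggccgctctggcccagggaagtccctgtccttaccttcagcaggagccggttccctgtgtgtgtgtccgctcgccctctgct
ALDH18A1: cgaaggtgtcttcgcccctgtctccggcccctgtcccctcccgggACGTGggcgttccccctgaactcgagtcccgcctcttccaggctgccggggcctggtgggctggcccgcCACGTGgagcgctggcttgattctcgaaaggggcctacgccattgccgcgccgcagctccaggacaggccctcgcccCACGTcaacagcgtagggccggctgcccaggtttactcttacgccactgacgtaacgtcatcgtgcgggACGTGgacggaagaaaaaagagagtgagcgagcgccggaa

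The 7 members had 10 promoters in all, since GLUL, ASNS and ASS1 have 2 starts each, and shares are given per promoter. The motif TGATGNAA was found in 2 of the 10, 1 each of ASNS and GOT1, and in 3.62% of the 35116 promoters of the same length. In ASNS it reads TGATGAAA, 68 to 61 bases before the start, and in GOT1 it reads TTGCATCA on the strand of the gene, 198 to 191 bases before the start. The other ASNS start, which lies downstream, had no such match. An E-box CACGTG stood 71 to 66 bases before the shown ASS1 start and 136 to 131 bases before that of ALDH18A1, and it occurs in 7.26% of promoters. The ASS1 start that is not shown had no match to any of these motifs. Counted on both strands, so that an E-box gives 2 matches, ACGTG had 5 matches in ALDH18A1, 2 in ASS1 and 1 in GOT2, and at least 1 match in 21.4% of promoters. GCGTG was found in 7 of the 10, those of ASNS, GLUD1, GLUL, GOT1 and GOT2, and in 36.5% of all promoters. A match describes letters in a window, and binding of these factors was not measured here.

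The total of the counts ranged from 2807779 in 786-O-VHL replicate 1 to 22141263 in the deeper 786-O-Ctrl library, and the 786-O-Ctrl libraries, whose columns carry the same number, are told apart here by depth. The restored gene VHL was at 42.9 and 43.9 CPM in 786-O-Ctrl, against 178 and 163 CPM in 786-O-VHL. All 9 markers listed for these cells, among them PAX8, VIM, KRT8 and CD70, had at least 103 counts in every library, while the endothelial marker PECAM1 had between 1 and 9 counts and the fibroblast marker COL1A1 between 21 and 134. CPM is the count scaled to a common library size, here the library total times its TMM factor, which edgeR estimates to offset differences in composition, and counts are relative, so less RNA of a gene cannot be told apart from more RNA of the others. Fold changes are those of 786-O-VHL relative to 786-O-Ctrl, from edgeR's quasi-likelihood test, whose Benjamini-Hochberg adjusted p over all 12335 genes is called FDR. With 2 libraries against 2, an exact two-sided permutation test cannot go below 0.333, and the FDR rests on the spread that edgeR shares between genes. Coordinates of genes are those of GRCh37 in the GENCODE annotation.

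Glutamine synthetase, GLUL, makes glutamine from glutamate and ammonia. GLUL (ENSG00000135821.18, chromosome 1 from 182347233 to 182361341, minus strand) had 4 counts in the deeper and 1 in the shallower 786-O-Ctrl library, 0 in 786-O-VHL replicate 1 and 1 in replicate 2. Its highest level was 0.19 CPM, against a limit of 3 counts that corresponds to 0.142 CPM in the same library and to 1.02 CPM in 786-O-VHL replicate 1. A difference in GLUL was not detectable at this depth, and no fold change is given. No other annotated gene shares its exons, but the annotation holds 4 pseudogenes of GLUL, and reads shared with near-identical copies can be split or dropped in counting, so the level is uncertain.

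Glutamate dehydrogenase, GLUD1, converts glutamate to α-ketoglutarate and ammonia in mitochondria. GLUD1 (ENSG00000148672.9, chromosome 10 from 88809959 to 88854600, minus strand) was at 239 and 245 CPM in 786-O-Ctrl, against 194 and 212 CPM in 786-O-VHL. Both 786-O-VHL libraries were thus lower, and the gap between the groups was not much wider than that between the 786-O-VHL libraries. The log2 fold change was -0.23 (standard error 0.0648, 95% interval -0.37 to -0.10, edgeR FDR = 0.00247). This smallest change among the 8 did not hold with scaling by library totals (log2 fold change -0.10, edgeR FDR = 0.17) or without the shallower 786-O-Ctrl library (-0.23, edgeR FDR = 0.0675). GLUD2, a retrocopy of GLUD1, had 46 and 25 counts in 786-O-Ctrl, against 4 and 17 in 786-O-VHL, and reads from the more abundant gene may be counted there. The annotation holds 7 pseudogenes of GLUD1, and SHLD2 on the opposite strand shares 3.25% of its exon bases.

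The aminotransferases divided by gene. GPT2, the mitochondrial alanine aminotransferase, links pyruvate and glutamate to alanine and α-ketoglutarate. GPT2 (ENSG00000166123.14, chromosome 16 from 46918274 to 46965201, plus strand) was at 121 and 133 CPM in 786-O-Ctrl, against 213 and 199 CPM in 786-O-VHL. Its log2 fold change was 0.69 (standard error 0.0675, 95% interval 0.55 to 0.83, edgeR FDR = 6.65e-10). The cytosolic form, GPT, was low, with between 10 and 45 counts in a library and a log2 fold change of 0.65 that did not pass the test (edgeR FDR = 0.109).

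GOT1 and GOT2 are the cytosolic and the mitochondrial aspartate aminotransferase, the pair of enzymes that runs the malate-aspartate shuttle. GOT1 (ENSG00000120053.12, chromosome 10 from 101156627 to 101190381, minus strand) was at 91.1 and 96.4 CPM in 786-O-Ctrl, against 158 and 156 CPM in 786-O-VHL. GOT2 (ENSG00000125166.13, chromosome 16 from 58741035 to 58768246, minus strand) was at 167 and 155 CPM in 786-O-Ctrl, against 102 and 105 CPM in 786-O-VHL. In CPM, the order of the isoenzymes was thus exchanged, with GOT2 above GOT1 in each 786-O-Ctrl library and below it in each 786-O-VHL library. Per kilobase of exon the order was also exchanged, but the 786-O-Ctrl means were closer, at 43.0 for GOT2 and 38.7 for GOT1. In 786-O-VHL they were 27.6 and 64.9. GOT1 rose with a log2 fold change of 0.74 (standard error 0.0654, 95% interval 0.61 to 0.88, edgeR FDR = 7.32e-11). GOT2 fell with a log2 fold change of -0.63 (standard error 0.0678, 95% interval -0.77 to -0.49, edgeR FDR = 3.67e-09). Within a library, the ratio of GOT1 to GOT2 counts was 0.545 and 0.621 in 786-O-Ctrl, against 1.56 and 1.49 in 786-O-VHL, a ratio that scaling of the libraries does not affect. Pseudogenes number 6 for GOT2 and 0 for GOT1 in the annotation.

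Asparagine synthetase, ASNS, transfers the glutamine amide to aspartate, and it is a classical target of ATF4 in amino acid shortage. ASNS (ENSG00000070669.17, chromosome 7 from 97480989 to 97501854, minus strand) had 82 and 58 counts in 786-O-Ctrl, against 16 and 151 in 786-O-VHL. These correspond to 3.89 and 3.85 CPM in 786-O-Ctrl, against 5.43 and 8.97 CPM in 786-O-VHL. The 786-O-Ctrl libraries were close to each other, while 786-O-VHL replicate 2 was well above replicate 1. The log2 fold change was 1.07 (standard error 0.231, 95% interval 0.60 to 1.54, edgeR FDR = 0.000207). The 16 counts of replicate 1 have an exact Poisson 95% interval of 3.10 to 8.81 CPM, which covers counting error only and includes both 786-O-Ctrl values. The interval of replicate 2, 7.59 to 10.5 CPM, lies above those of 786-O-Ctrl, and without replicate 2 the log2 fold change of ASNS fell to 0.48 (edgeR FDR = 0.378). Of the 4896 exon bases of ASNS, 49.3% are shared on the same strand with ENSG00000284707, annotated as a long noncoding RNA and not analysed here, and 6 pseudogenes are annotated. How many ASNS reads were left out of its count for these reasons was not tested, and the low level of ASNS is uncertain. The paper lists the ASNS protein among those ubiquitinated and lower in 786-O-VHL, opposite in direction to these counts.

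Proline synthesis from glutamate starts with ALDH18A1, also called P5CS, which makes pyrroline-5-carboxylate in mitochondria, and ends with PYCR1, which reduces it to proline. ALDH18A1 (ENSG00000059573.9, chromosome 10 from 97365698 to 97416468, minus strand) was at 214 and 210 CPM in 786-O-Ctrl, against 120 and 129 CPM in 786-O-VHL. Its log2 fold change was -0.75 (standard error 0.0661, 95% interval -0.89 to -0.62, edgeR FDR = 7.33e-11), the largest fall among the 8. PYCR1 (ENSG00000183010.16, chromosome 17 from 79890260 to 79900288, minus strand) was at 216 and 218 CPM in 786-O-Ctrl, against 272 and 303 CPM in 786-O-VHL. Its log2 fold change was 0.42 (standard error 0.0647, 95% interval 0.29 to 0.56, edgeR FDR = 1.89e-06). The first and the last enzyme of the route thus moved apart, from nearly equal counts to a clear excess of PYCR1. Per kilobase of exon, PYCR1 was already above ALDH18A1 in 786-O-Ctrl, at 75.2 against 56.3 CPM per kilobase. In 786-O-VHL these were 99.7 and 33.0. The ratio of PYCR1 to ALDH18A1 counts was 1.01 and 1.04 in 786-O-Ctrl, against 2.27 and 2.36 in 786-O-VHL. Of the exon bases of PYCR1, 14.1% are shared with MYADML2 on the same strand and 15.6% with an annotated gene on the opposite strand, while no annotated gene shares exons with ALDH18A1.

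Argininosuccinate synthase, ASS1, joins citrulline and aspartate and is the rate-limiting enzyme of arginine synthesis from citrulline. ASS1 (ENSG00000130707.17, chromosome 9 from 133320348 to 133376661, plus strand) was at 24.6 and 23.3 CPM in 786-O-Ctrl, against 140 and 144 CPM in 786-O-VHL. Replicates of either group lay within a few percent of each other, and the shallowest library, with 412 ASS1 counts, gave the same level as 786-O-VHL replicate 2 with 2420. The log2 fold change of ASS1 was 2.57 (standard error 0.0750, 95% interval 2.41 to 2.72, edgeR FDR = 3.62e-21), and it ranked 215 from the highest of the 12335 genes. Argininosuccinate lyase, ASL, the next enzyme, was at 31.8 and 33.2 CPM in 786-O-Ctrl, against 25.1 and 29.5 CPM in 786-O-VHL, with a log2 fold change of -0.19 that did not pass the test (95% interval -0.40 to 0.03, edgeR FDR = 0.12). The ratio of ASS1 to ASL counts therefore went from 0.774 and 0.702 to 5.57 and 4.87. Per kilobase of exon, mean ASS1 was above mean ASL in both groups. The means were 7.94 against 5.39 CPM per kilobase in 786-O-Ctrl and 47.0 against 4.53 in 786-O-VHL. No annotated gene shares exons with ASS1, and the annotation holds 14 pseudogenes of it, of which none was analysed here.

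**Figure D2:**
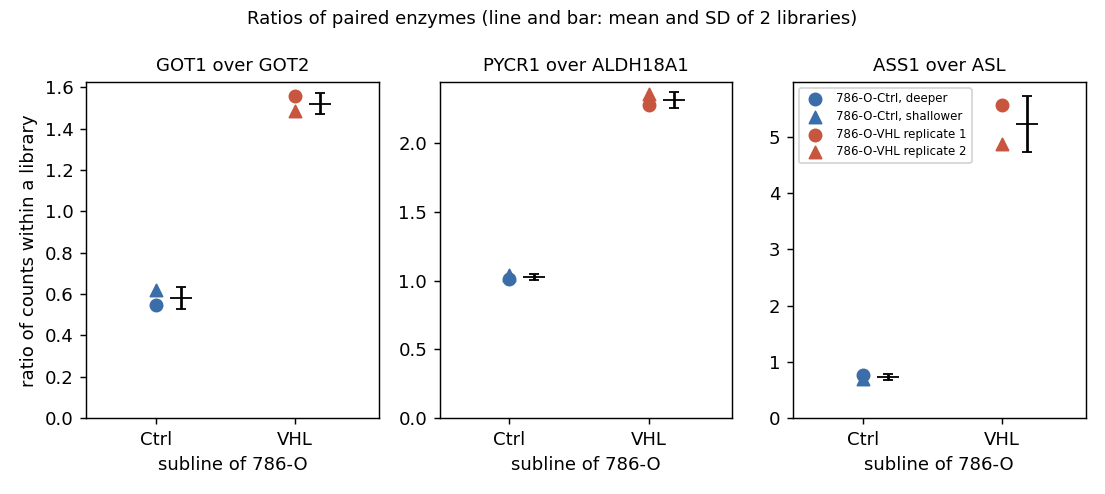
Ratio of counts of paired enzymes within each library, for GOT1 over GOT2, PYCR1 over ALDH18A1 and ASS1 over ASL, with 2 libraries per subline and the mean and SD beside them. All 3 ratios were higher in both 786-O-VHL libraries, with means of 0.583 and 1.52 for GOT1 over GOT2, 1.03 and 2.32 for PYCR1 over ALDH18A1, and 0.738 and 5.22 for ASS1 over ASL.

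These 3 ratios had an exact two-sided permutation p of 0.333 each, the smallest that 4 libraries allow, and the pairs were chosen after their values were seen. They are 3 of 6 pairs computed. Of the others, GFPT1 over GFPT2 was also higher in both 786-O-VHL libraries, with means of 6.74 and 17.9, while the libraries overlapped for GPT2 over GPT, with means of 71.8 and 68.7 (exact permutation p = 1), and for GLUD1 over GLUD2, with means of 129 and 177 (exact permutation p = 0.667).

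Levels of different genes were compared per kilobase of exon. In 786-O-Ctrl the order was PYCR1 at 75.2 ± 0.673 CPM per kilobase (SD, n = 2), ALDH18A1 at 56.3, GOT2 at 43.0, GOT1 at 38.7, GPT2 at 19.9, GLUD1 at 16.9, ASS1 at 7.94, ASNS at 0.791 and GLUL at 0.0101, and no neighbours in this order overlapped between libraries. In 786-O-VHL it was PYCR1 at 99.7 ± 7.56 CPM per kilobase (SD, n = 2), GOT1 at 64.9, ASS1 at 47.0, ALDH18A1 at 33.0, GPT2 at 32.4, GOT2 at 27.6, GLUD1 at 14.2, ASNS at 1.47 and GLUL at 0.00235. There the libraries of ALDH18A1 and GPT2 overlapped, so these neighbours could not be ordered. ASS1 moved from the seventh to the third place, and PYCR1 stayed first. Exon lengths are those of all annotated transcripts merged and can exceed the length of the transcript used.

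**Figure D3:**
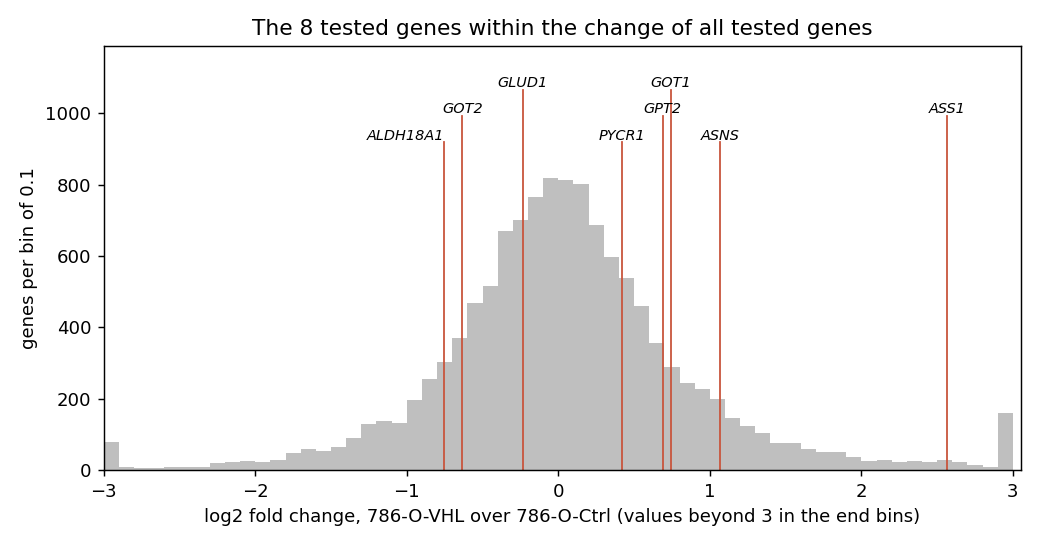
Number of genes per bin of 0.1 in the log2 fold change of 786-O-VHL over 786-O-Ctrl for all 12335 genes tested, with the values of the 8 tested enzymes as red lines. ASS1, at 2.57, lies in the upper tail, and the other 7 lie between -0.75 and 1.07, within the body of the distribution.

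The other genes of these pathways were taken from a list of 39 symbols, older symbols included, of which 26 had a row and all 26 were tested. Among these 26, 8 were higher and 10 lower at an edgeR FDR under 0.05 and 8 did not pass, with a median log2 fold change of -0.17. These shares are near the 32.6% higher and 31.9% lower over all genes tested. The 8 higher include PRODH2, which passed the filter on low counts only through 786-O-VHL.

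Of the 6 other aminotransferases, 3 were higher, 1 was lower and 2 did not pass. BCAT1, the cytosolic branched-chain aminotransferase, rose with GOT1 and GPT2, from 143 and 155 CPM to 310 and 309 CPM (log2 fold change 1.06, edgeR FDR = 2.87e-14). PSAT1, of serine synthesis, had a log2 fold change of 0.41 (edgeR FDR = 4.22e-05) and BCAT2, the mitochondrial form, of 0.24 (edgeR FDR = 0.0183), a call that was lost in 5 of 11 settings, DESeq2 among them (adjusted p = 0.267). OAT, the mitochondrial ornithine aminotransferase, whose product is also pyrroline-5-carboxylate, fell with GOT2 from 136 and 134 CPM to 81.1 and 72.4 CPM (log2 fold change -0.86, edgeR FDR = 2.29e-11).

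**Figure D4:**
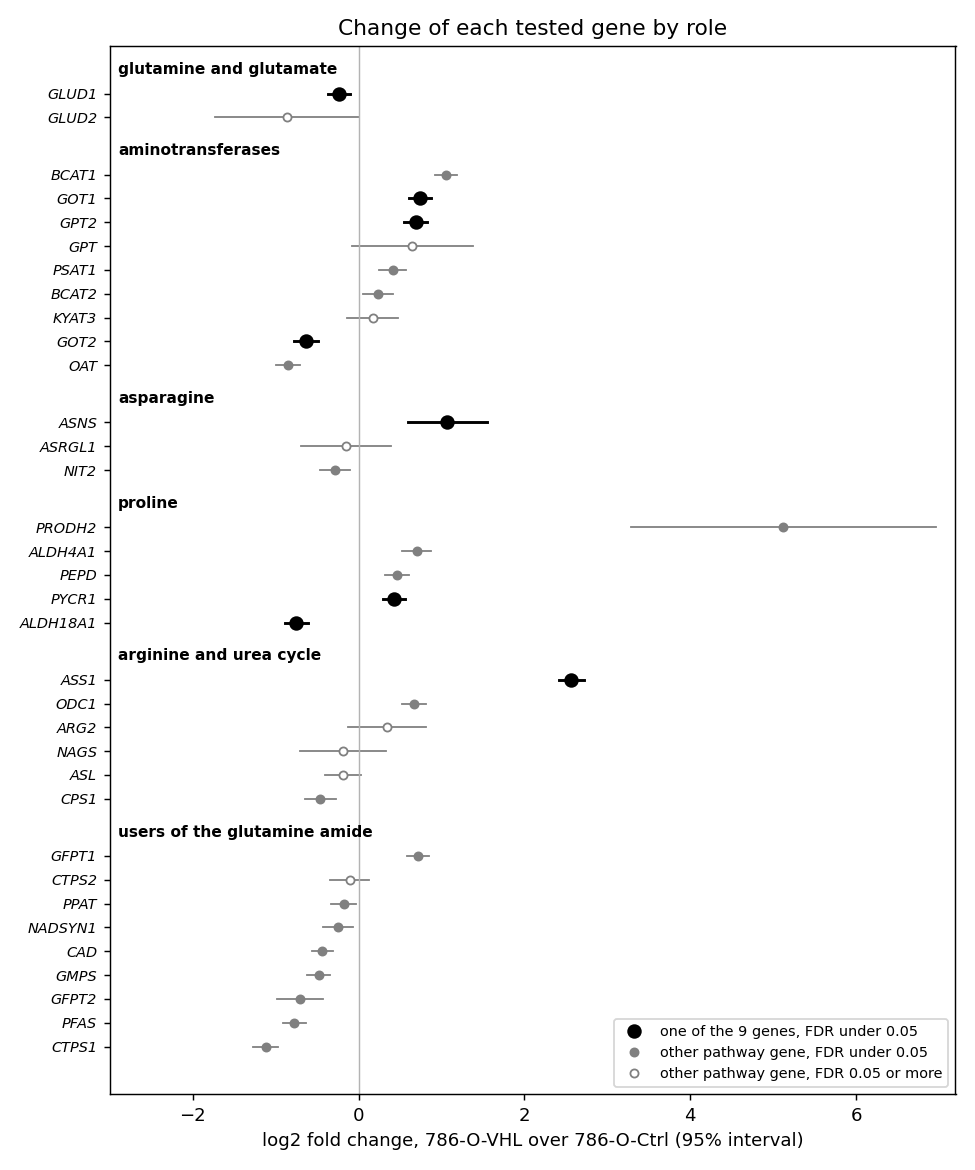
Log2 fold change of 786-O-VHL over 786-O-Ctrl with its 95% interval for each tested gene, grouped by role, with the 8 tested members in black and the other 26 genes in grey, filled where the edgeR FDR was under 0.05. In most roles genes lie on both sides of 0, and 7 of the 9 users of the glutamine amide lie below 0 with an FDR under 0.05.

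Of the other proline genes on the list, ALDH4A1, PEPD and PRODH2 were called higher, as were 32.6% of all genes tested. ALDH4A1, the mitochondrial dehydrogenase that returns pyrroline-5-carboxylate to glutamate, rose from 37.6 and 35.7 CPM to 57.7 and 60.4 CPM (log2 fold change 0.70, edgeR FDR = 3.24e-08), in the opposite direction from ALDH18A1. Of its exon bases, 41.8% are shared on the same strand with another annotated gene that was not analysed here. PEPD, which releases proline from dipeptides, had a log2 fold change of 0.47 (edgeR FDR = 2.38e-06). PRODH2, a hydroxyproline dehydrogenase, had 1 and 0 counts in 786-O-Ctrl, against 4 and 21 counts in 786-O-VHL, a ratio of rates of 45.6 with an exact 95% interval of 7.47 to 1873 for counting error only (edgeR FDR = 1.42e-05). PRODH2 passed the filter on low counts only through 786-O-VHL. Its call is included in the counts of genes called higher but gives them no support.

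For arginine and the urea cycle, 1 of 5 other genes was higher, 1 was lower and 3 did not pass. ODC1, which makes putrescine from ornithine, rose from 145 and 147 CPM to 208 and 246 CPM (log2 fold change 0.67, edgeR FDR = 2.11e-09). CPS1, the mitochondrial carbamoyl phosphate synthetase, was at 49.8 and 52.0 CPM in 786-O-Ctrl, against 42.1 and 35.4 CPM in 786-O-VHL (log2 fold change -0.46, edgeR FDR = 7.69e-05), a call that was lost without 786-O-VHL replicate 2 (edgeR FDR = 0.095). ASS1 was thus the only gene of this group, member or not, past a 2-fold change. Of the asparagine genes other than ASNS, NIT2 fell, with a log2 fold change of -0.28 (edgeR FDR = 0.00644) that did not pass in 5 of 11 settings, DESeq2 among them (adjusted p = 0.0915), and ASRGL1 did not pass.

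Enzymes that take the amide group of glutamine, as ASNS does, had 7 of 9 lower, where 31.9% of all genes tested were lower, 1 higher and 1 that did not pass, with a median log2 fold change of -0.44 against 0.02 over all genes. The calls of NADSYN1 and PPAT, the smallest of the 7, were each lost in 6 of 11 settings, DESeq2 among them. CTPS1, which makes CTP, fell from 113 and 114 CPM to 50.9 and 52.5 CPM (log2 fold change -1.12, edgeR FDR = 1.19e-13). PFAS, of purine synthesis, and GFPT2, of the hexosamine pathway, had log2 fold changes of -0.77 (edgeR FDR = 1.11e-10) and -0.71 (edgeR FDR = 4.4e-05). GFPT1, the paralog of GFPT2, rose like ASNS, from 136 and 150 CPM to 228 and 238 CPM (log2 fold change 0.72, edgeR FDR = 1.83e-10). These are transcripts, and the paper lists the GFPT1, ASNS and CAD proteins among those ubiquitinated and lower in 786-O-VHL. Transcript and protein thus went in opposite directions for GFPT1 and ASNS. For CAD the transcript was lower too (log2 fold change -0.44, edgeR FDR = 1.12e-06).

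The genes whose levels over the 4 libraries followed ASS1 most closely were ADGRL1, DCLK1, LURAP1L, KRT7 and ZNF467. Likeness was the Euclidean distance between log2 values of CPM plus 0.5, centred on the mean of each gene. It was 0.0728 for ADGRL1 and 0.14 for ZNF467. With 4 libraries in 2 groups, this measure mainly picks genes with a change of similar size after the 0.5 is added. Without it the changes were between 6.19-fold and 9.13-fold, against 5.93-fold for ASS1. The largest were KRT7 (8.15-fold) and ZNF467 (9.13-fold). In 786-O-Ctrl these had only 20 and 11 counts and 20 and 13 counts, and at such levels the added 0.5 narrows the measured change.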

How the data were processed

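RNA of both sublines was sequenced, and the authors aligned reads to hg19 (the processing notes of the submitters name CASAVA and STAR) and deposited raw counts per gene, without normalization. Which counting tool, strand setting and annotation they used is not given in the sources used here. Counts of 4 libraries, which summed to 22141263, 15714166, 2807779 and 16114120, went into the quasi-likelihood F test of edgeR 4.0.16, under R 4.3.3 (filterByExpr at a minimum count of 10, TMM, group as the only term, Benjamini-Hochberg over 12335 genes). Replicates differed by more than sampling noise (chi-square per degree of freedom 2.25 and 2.76). The standard error was taken as the log2 fold change over the root of F. Both 786-O-Ctrl columns carry 1 replicate number and were used as replicates without a number. Overlaps were taken from GENCODE 44 on GRCh37, which held 12749 of 12912 identifiers.

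The 9 members, the pathway list and the pairs were chosen with earlier results of these data known. Genes named are the members, VHL, at most 3 per direction and role with the largest called change, and 5 genes nearest to the member with the smallest p. ASL, GPT and GLUD2 were named in addition as partners or paralogs. CAD was named because the paper lists its protein, with those of ASNS and GFPT1, among those lower in 786-O-VHL. NADSYN1, PPAT, ASRGL1 and CTPS2 were named for their dependence on the processing. All of these were named after their values were seen. The rank of a log2 fold change is over all genes tested. Some genes of these pathways were left out of the list and are not reported here. The script was tested on simulated data. Alternatives were DESeq2 1.42.0, limma-voom (limma 3.58.1), RLE factors, library totals, other filters, thinning to 2807779 counts, each library left out, and other thresholds.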

Additional observations from a re-analysis of the deposited data

How the results depend on the processing

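With tool, normalization, filter, depth or library changed, the calls of ASS1, GOT1, GPT2, PYCR1, ALDH18A1 and GOT2 kept their direction and their FDR under 0.05 in all 11 settings, with log2 fold changes from 2.47 to 2.70 for ASS1, 0.70 to 0.88 for GOT1, 0.62 to 0.82 for GPT2, 0.32 to 0.56 for PYCR1, -0.83 to -0.62 for ALDH18A1 and -0.69 to -0.50 for GOT2. ASNS lost its call without 786-O-VHL replicate 2 (adjusted p = 0.378), and its log2 fold change ranged from 0.48 to 1.36. GLUD1 lost its call in 3 settings, with scaling by library totals, after thinning to the same total count (adjusted p = 0.0864) and without the shallower 786-O-Ctrl library, and its log2 fold change ranged from -0.32 to -0.10. The cause was not tested. The number of members higher was 1 at a fold change over 4 with FDR under 0.01 and 2 at a fold change over 2, and the number lower was 0 at either threshold. With each library left out in turn, between 6 and 10 of the other pathway genes were lower, with the count of 6 without 786-O-VHL replicate 2. Library totals moved the median log2 fold change of all genes by 0.13 and the share of calls that were higher from 50.5% to 62.1%, and CTPS2 then changed sign to 0.026. With each library left out in turn, ASRGL1 ranged from -0.29 to 0.019, with its sign changed without the deeper 786-O-Ctrl library. ASRGL1 and CTPS2 were not called in any of these settings. No paired analysis was possible because both 786-O-Ctrl columns carry the same replicate number. The depth of 786-O-VHL replicate 1 limits statements on GLUL, ASNS, GPT, GLUD2 and PRODH2, and PRODH2 gave no value in 3 settings.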
